A study of Rattus norvegicus with 3 samples.

Results

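Cytotoxic lymphocytes kill target cells with stored granules, and 7 genes of that programme were followed through the rat thymus: Nkg7, Gzma, Gzmb, Prf1, Klrd1, Tbx21 and Eomes. They were chosen by name, as genes of cytotoxic and innate-like lymphocytes, from 34034 genes in the count tables, and all 7 were in both tables. Thymi of Lewis rats, an inbred strain, were taken at 8 weeks of age. One droplet library was made from thymocytes and another from stromal cells sorted for lack of CD45, the surface protein of blood-derived cells, and no treatment or genotype was compared. A spatial section of the same series is not used here, since its tables as analysed here hold no counts per gene. Each library was 1 sample, whether of 1 animal or of several is not stated in the labels, so no test was possible, and all intervals are 95% intervals for counting error only.

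Killer cells carry granules that hold perforin, which opens pores in the membrane of a target, and granzymes, proteases that enter it and start cell death. T-bet (Tbx21) and eomesodermin (Eomes) are the transcription factors that switch this programme on in natural killer (NK) cells, innate-like T cells and activated CD8 T cells. The thymus makes T cells from double-negative (DN) and double-positive (DP) precursors, named for the co-receptors CD4 and CD8, and most conventional CD8 T cells take up the killer programme only after they have left it. Gamma-delta T cells (gdT) and natural killer T cells (NKT) are made in the same organ and can acquire effector genes before they leave.

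The thymocyte library held 8546 annotated cells with a median of 3994 UMIs (unique molecular identifiers, the tags by which captured RNA molecules are counted), and the stromal library 13226 with a median of 9087.5. Labels are the authors'; AgoSel1 and AgoSel2, B+myeloid and the stromal names are printed as deposited. Of the cell barcodes, 38 occurred in both libraries, 28 of them annotated in both; 1 Myeloid cell with an Nkg7 UMI had such a barcode and no gdT cell with one did. No doublet caller was run.

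The gamma-delta receptor genes Trdc, Trgc1, Trgc2 and Tcrg and the alpha-beta receptor genes Trac, Trbc1, Trbc2 and Tcrb were not found by these symbols, so the gdT label could not be checked against them. The 128 gdT cells held Cd3d at 1753 CPM (counts per 1000000 UMIs of the label) and Sox13, a factor of gamma-delta cells, at 11.8 CPM, the highest among labels of at least 20 cells. They also held the precursor genes Ptcra at 247 CPM and Rag1 at 348 CPM, and the 7 genes of the NK list summed to 21.3 CPM, with Txk, a kinase, at 18.4 CPM of it and Ncr1, Klre1 and Klrc1 at 0. That sum was 14.6 CPM in DN, 80.7 CPM in DP, 285 CPM in Mature CD8-1 and 937 CPM in NKT. Ncr3, a receptor of NK cells on another list, stood at 10.3 CPM in gdT, 1.20-fold above the next label. The stromal label Myeloid, 505 cells, was led by neutrophil markers, with S100a9 at 71122 CPM and S100a8 at 49371 CPM; the macrophage marker C1qa and the dendritic cell marker Clec9a were at 0. Of the 7 NK markers, 6 were at 0 in Myeloid, and Txk stood at 0.663 CPM. The AgoSel labels held Nr4a1, a gene induced by receptor signalling, at 1117 CPM in AgoSel1 and 331 CPM in AgoSel2.

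Promoters of the 4 granule genes are shown because their RNA was highest in different cells: Nkg7 in gdT and Myeloid, Prf1 across DP and later T cell labels, and Gzma and Gzmb in medullary epithelium. The sequences are RefSeq's on GRCr8, from 250 bases before the annotated start to 50 from the start on, 5′ to 3′ on the gene's strand. Nkg7 lies at chr1:102981247-102981546 on the plus strand, Gzma at chr2:46485647-46485946 on the minus strand, Gzmb at chr15:34462420-34462719 on the minus strand and Prf1 at chr20:29788790-29789089 on the plus strand. Capitals mark matches, on either strand, to the RUNX motif TGTGGT (reverse complement ACCACA) or the ETS motif GGAAGT (reverse complement ACTTCC).
Nkg7: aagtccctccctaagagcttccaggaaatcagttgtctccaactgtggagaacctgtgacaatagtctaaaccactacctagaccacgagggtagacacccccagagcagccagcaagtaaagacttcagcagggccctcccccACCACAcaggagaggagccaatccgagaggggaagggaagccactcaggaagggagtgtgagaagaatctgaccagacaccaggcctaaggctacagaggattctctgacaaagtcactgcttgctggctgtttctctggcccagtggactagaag
Gzma: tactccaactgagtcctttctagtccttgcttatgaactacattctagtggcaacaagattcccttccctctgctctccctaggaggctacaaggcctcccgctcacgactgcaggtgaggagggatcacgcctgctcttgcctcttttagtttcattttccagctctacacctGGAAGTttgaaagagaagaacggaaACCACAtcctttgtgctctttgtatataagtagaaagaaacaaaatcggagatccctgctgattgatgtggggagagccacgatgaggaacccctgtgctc
Gzmb: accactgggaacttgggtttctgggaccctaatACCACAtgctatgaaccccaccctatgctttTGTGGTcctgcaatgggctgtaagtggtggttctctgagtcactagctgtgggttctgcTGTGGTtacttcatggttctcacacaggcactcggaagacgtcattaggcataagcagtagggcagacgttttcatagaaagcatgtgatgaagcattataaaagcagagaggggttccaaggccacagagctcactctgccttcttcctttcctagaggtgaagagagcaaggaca
Prf1: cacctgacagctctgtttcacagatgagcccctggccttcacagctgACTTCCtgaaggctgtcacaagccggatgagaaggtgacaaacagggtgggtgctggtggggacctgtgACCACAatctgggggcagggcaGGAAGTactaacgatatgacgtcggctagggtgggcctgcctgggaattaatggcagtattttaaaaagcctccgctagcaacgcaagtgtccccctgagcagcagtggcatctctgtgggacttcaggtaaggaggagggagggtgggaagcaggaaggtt
The RUNX letters were found in 5 of 6 member promoters, and in 17.3% of all 33469 promoters of the table. Gzmb held 3 such matches, starting -217, -186 and -127 bases from the start, and the others had 1 each, Nkg7 at -106, Prf1 at -134, Gzma at -51 and Eomes at -18. The Tbx21 promoter held none. The ETS letters, in 22.6% of promoters, were found in 2 members, Gzma at -76 and Prf1 at -203 and -112. The T-box motif GGTGTGA, in 3.83% of promoters, and the C/EBP motif TTGCNNAA, in 10.6%, were found in none of the 6, and no match overlapped another. Klrd1 was not in the promoter table. A match of letters is a description of the sequence and says nothing of binding.

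Nkg7, a membrane protein of cytotoxic granules, was the only member to lead in 1 label of the thymocyte library, among labels of at least 20 cells. It gave 375 UMIs in gdT, a level of 138 CPM (124 to 152), with 72 of 128 cells holding at least 1. The next label of at least 20 cells, AgoSel2, gave 7 UMIs in 3 of 58 cells (10.0 CPM, 4.04 to 20.7), so gdT was 13.7-fold higher (6.50 to 29.0). A lead is called here where the first label exceeds the second by 3-fold or more and holds 20 UMIs or more. Of the 10010 genes with 20 UMIs in their highest label, 11.9% led in some label, 0.759% in gdT, 0.03% in AgoSel1 and 0.05% in AgoSel2.

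**Figure D1:**
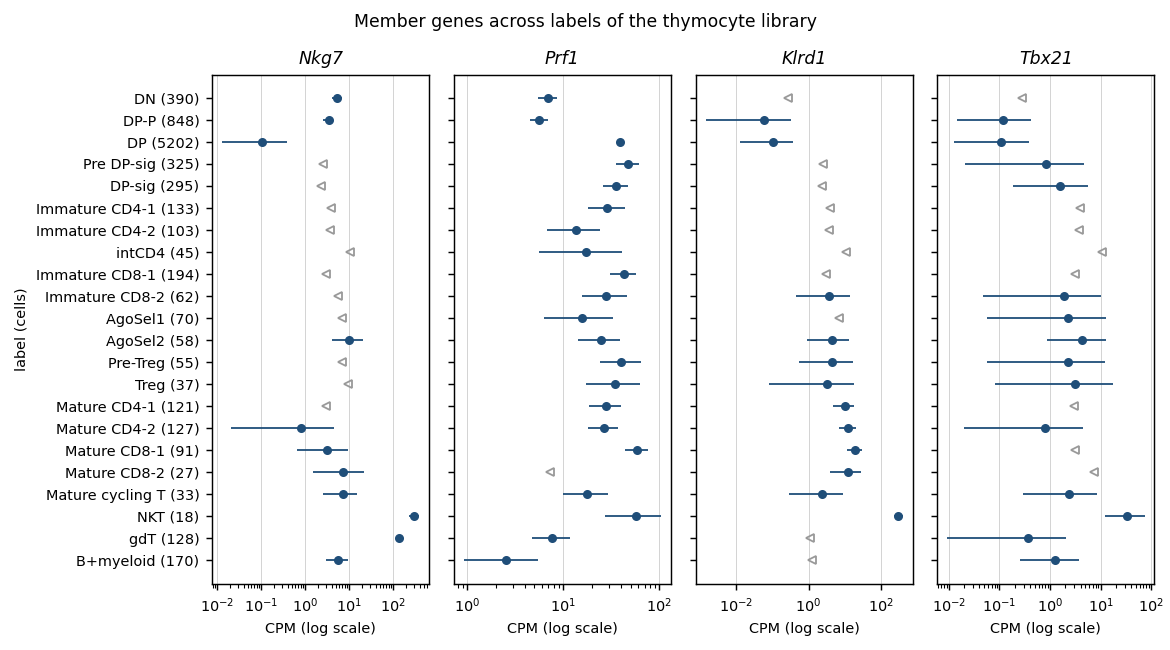
Levels of Nkg7, Prf1, Klrd1 and Tbx21 (CPM, log scale) in 22 labels of the thymocyte library, with the number of cells after each label; points are levels, bars exact Poisson 95% intervals, and open triangles mark labels with no UMI, drawn at the level of 3 UMIs. Nkg7 stands apart in gdT and NKT, Prf1 is spread over most labels past DP-P, and Klrd1 is highest in NKT.

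Between gdT and the stages beside it the gap was wide. DN cells gave 58 Nkg7 UMIs in 22 of 390 cells, 5.35 CPM, and the proliferating label DP-P gave 58 UMIs in 12 cells, 3.39 CPM; gdT was 25.7-fold above DN (19.5 to 33.9). The 5202 DP cells gave 2 UMIs, 0.106 CPM, taken here as the level of free RNA. Depth differed, with a median of 19803.5 UMIs per gdT cell, 23190 per DN cell and 3205.5 per DP cell. An Nkg7 UMI was found in 56.3% of gdT cells (exact Clopper-Pearson interval 47.2 to 65.0), 5.64% of DN cells and 0.0384% of DP cells. With every cell thinned to 1000 UMIs the shares were 9.38% (4.94 to 15.8), 0.256% and 0 of 5164.

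Among other T cell labels Nkg7 was scarce. Mature CD8-1 held 3 UMIs in 3 of 91 cells, 3.16 CPM, and Mature CD8-2 held 3 in 1 of 27 cells, 7.25 CPM. AgoSel1 held 0 UMIs in 70 cells, where 3 UMIs would be 6.78 CPM and the exact Poisson limit is 8.34 CPM. From AgoSel2 down, the intervals of neighbouring labels in the order of levels overlapped, so the counts do not resolve that order.

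Within gdT the Nkg7 UMIs lay in one part of the label. All 375 were in the 111 gdT cells that the first clustering had placed with DN, at 144 CPM (130 to 159), and the 17 cells from other clusters held none. UMIs per cell ran from 0 to 23, with a median of 1 and an upper quartile of 4. DN-labelled cells of the same first cluster held Nkg7 at 7.28 CPM and were deeper, with a median of 37879 UMIs against 21046.

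Other genes of these 111 cells, chosen after their values were seen, were Tarp, a gamma-receptor transcript, at 319 CPM against 24.0 CPM in the DN-labelled cells of that cluster, and Mcpt8, a granule protease of basophils, at 310 CPM against 1.92. Tarp was not particular to gdT: NKT cells of the first cluster Mature SP held it at 262 CPM, with Mcpt8 at 0. Mcpt8 was found in 29 of the 111 cells and 23 of those also held Nkg7, beside 72 of all 111. The mast and basophil markers Ms4a2, Hdc and Cpa3 gave 0, 1 and 1 UMI in all gdT cells. Fcer1g, a receptor adaptor on the myeloid list, stood at 147 CPM in gdT, and the 10 myeloid markers summed to 164 CPM, with Lyz2 and Mpeg1 at 0. Without the 16 gdT cells that held a UMI of Lyz2, Csf1r, Cd68, Spi1, Cd79a or Cd79b, Nkg7 was 125 CPM, and 12.4-fold above AgoSel2.

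The NKT label held 18 cells, under the minimum of 20 set for ranking, and held the highest levels of Nkg7 and Klrd1 among labels of at least 10 cells. Its Tbx21 level, 33.9 CPM, was also the highest but came from 6 UMIs of 1 cell, and its Eomes interval, 3.49 to 49.5 CPM on 3 UMIs, overlaps that of Treg, 0.0799 to 17.6. Nkg7 gave 53 UMIs in 5 cells, 299 CPM (224 to 391), 2.17-fold above gdT (1.63 to 2.89). Of these UMIs, 48 lay in 2 cells, with 28 and 20. Those 2 cells held Tyrobp, an adaptor of NK receptors, at 50 and 35 UMIs, and Cd3g, a part of the T cell receptor complex, at 0 and 1. The other 16 cells held 5 Nkg7 UMIs, 32.1 CPM, 0 of Tyrobp and 152 of Cd3g. Zbtb16, which encodes the factor PLZF of NKT cells, gave 58 of its 62 UMIs in these 16. Tarp, the gamma-receptor transcript, gave 31 of its 44 UMIs in the same 16 cells, 199 CPM.

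**Figure D2:**
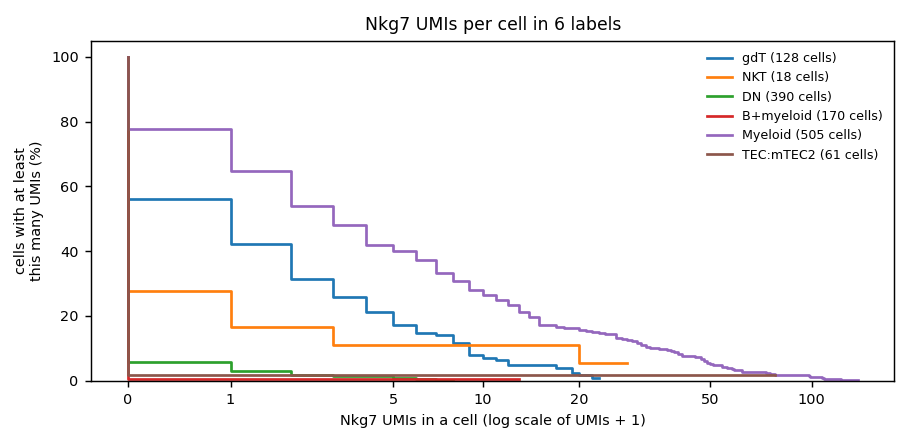
Share of cells (percent) with at least a given number of Nkg7 UMIs (log scale of UMIs + 1) in 4 labels of the thymocyte library (gdT, NKT, DN, B+myeloid) and 2 of the stromal library (Myeloid, TEC:mTEC2). Myeloid and gdT cells hold a graded range, up to 137 and 23 UMIs, while the UMIs of B+myeloid and TEC:mTEC2 come from 1 cell each.

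In the mixed B+myeloid label of the thymocyte library, Nkg7 gave 13 UMIs, all in 1 of 170 cells (5.44 CPM). That cell also held 6 Gzmb UMIs, 2678 of Mcpt8 and 11 of Ms4a2, the beta chain of the IgE receptor. S100a8 and S100a9, the neutrophil markers, were at 0 in it. A further cell, labelled only by the cluster name DP1, held 27 Nkg7 UMIs, 1875 CPM of that cell's UMIs, with 99 of S100a8, 128 of S100a9 and 79 of Elane, and 0 of Cd3g.

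In the stromal library Nkg7 was a gene of the Myeloid label. Its 505 cells gave 5610 UMIs, 929 CPM (905 to 954), in 393 cells, with quartiles of 1, 3 and 11 UMIs per cell and a highest of 137. It was 10.4-fold above mTEC2 (8.34 to 13.0), a medullary epithelial label, where 9.44% of 13149 genes led in some label and 1.79% in Myeloid. The 78 UMIs of mTEC2 were all in 1 of 61 cells, which also held Mpo at 124, Elane at 102 and Ctsg at 384 UMIs beside Aire at 10 and Epcam at 8, and neither S100a8 nor S100a9. Whether that droplet held 1 cell was not tested. With the cell holding most UMIs of the gene left out of every label, Myeloid stood 522-fold above the next label, Thymocyte.

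The CD45-negative sort is meant to remove blood-derived cells, so the Myeloid label is what passed it. TMC2, a mesenchymal label of 3080 cells, gave 17 Nkg7 UMIs, 0.637 CPM, in 0.519% of cells at a median depth of 8269.5 UMIs, against 77.8% (73.9 to 81.4) of Myeloid cells at 9510. Thinned to 1000 UMIs, the shares were 40.2% in Myeloid and 0.0325% in TMC2. In labels with at least 10 Nkg7 UMIs, Nkg7 UMIs per 1000 of S100a8 were 18.8 in Myeloid, 23.4 in TMC2 and 11.7 in capFb. They were 36.8 in TMC4, 26.2 in TEC:early Pr and 4588 in mTEC2. The value was 1.36 in mTEC-prol with 1 Nkg7 UMI, and 0 in labels without any.

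Within Myeloid, Nkg7 moved with genes of immature neutrophils. The 133 cells with at least 10 UMIs of Elane, neutrophil elastase of primary granules, all held Nkg7, at 1781 CPM (1728 to 1836). The 72 cells with 1 to 9 Elane UMIs held it at 619 CPM, and the 300 with none at 333 CPM (312 to 354). Ctsg, cathepsin G of the same granules, moved with it, from 45.4 to 13306 CPM across these classes. Camp, a secondary granule gene of later stages, moved the other way, from 23201 down to 368 CPM, as did S100a8, from 91241 down to 2138 CPM.

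**Figure D3:**
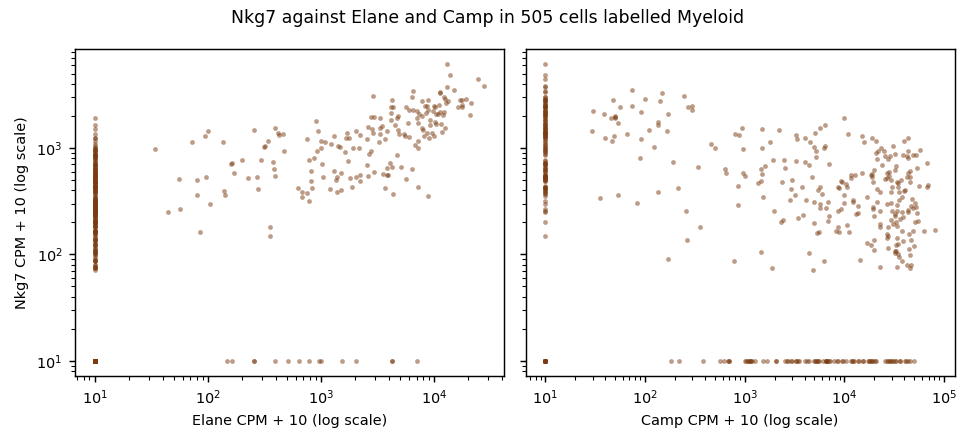
Nkg7 against Elane (left) and Camp (right) in the 505 Myeloid cells of the stromal library, each as CPM + 10 on log scales, 1 point per cell. Cells high in Elane are high in Nkg7, and cells high in Camp hold less of it, with 112 cells at 0 along the lower edge.

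Over the 505 cells, Spearman's rho with Nkg7 UMIs was 0.69 for Elane, 0.59 for Mpo, -0.36 for Camp and -0.40 for S100a8. The cells share 1 library, and rho with total UMIs was 0.38, so depth moves with these values; its part in them was not tested. Median depth was 14032 UMIs in the cells with at least 10 Elane UMIs and 8210 in those with none. Leaving out the 155 Myeloid cells with a UMI of Cd3d, Cd3e or Cd3g lowered Nkg7 to 527 CPM. Those 155 cells were deeper, at a median of 16239 against 6918.5 UMIs, and higher in Elane, at 4534 against 1044 CPM. Their CD3 UMIs were 471 of Cd3g, 141 of Cd3e and 10 of Cd3d, where the cells labelled Thymocyte in the same library had 2519, 991 and 1319.

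Gzma and Gzmb were next to absent from the lymphocyte labels. Gzma, the tryptase of killer granules, gave 5 UMIs in the whole thymocyte library, 4 of them in B+myeloid and 1 in NKT. It gave none in gdT, AgoSel or Mature CD8 cells. Of the 170 B+myeloid cells, 71 held a UMI of Cd3d, Cd3e or Cd3g. With those left out, the label held 0 Gzma UMIs. Gzmb, the caspase-activating granzyme, gave 9, of which 6 were in the Mcpt8-bearing cell and 2 in 1 cell of Mature CD8-2. The gdT label held 0 Gzmb UMIs, where 3 UMIs would be 1.10 CPM and the exact Poisson limit is 1.36 CPM. Near-identical granzyme genes of the Gzmb cluster are in the table, and reads shared between them could be split or lost in counting, so these levels are uncertain. Gzmc of that cluster gave 156 UMIs in the 27 Mature CD8-2 cells, 377 CPM, 2.66-fold above the next label and so under the lead rule.

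In the stroma both granzymes were highest in medullary epithelium. Gzma gave 83 UMIs in 57 of 13226 cells, and 59 of them fell in 37 cells of mTEC1, mTEC-prol and mTEC2. The level was 5.75 CPM in mTEC1 (4.05 to 7.93), 7.31 in mTEC-prol and 13.7 in mTEC2 (7.08 to 23.9), and neighbouring intervals overlap. The level in mTEC2 was 2.38-fold above mTEC1 (1.24 to 4.57). In cortical epithelium, cTEC, it was 0.602 CPM, 9.56-fold below mTEC1 (2.95 to 31.0), and in TMC2 0.112 CPM. Gzma was found in 5.19% of mTEC1 cells (3.38 to 7.56) and 0.0974% of TMC2 cells, at median depths of 11915.5 and 8269.5 UMIs, or in 0.420% and 0 of 3079 after thinning. Myeloid held 0 UMIs.

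**Figure D4:**
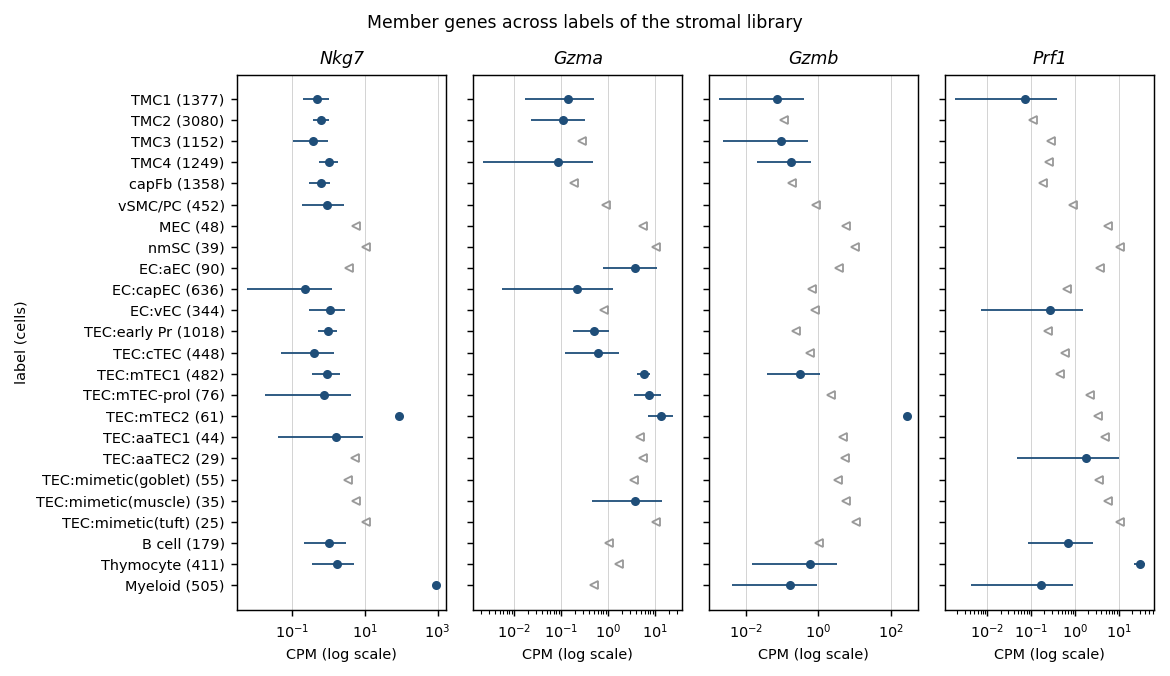
Levels of Nkg7, Gzma, Gzmb and Prf1 (CPM, log scale) in 24 labels of the stromal library, with the number of cells after each label; points are levels, bars exact Poisson 95% intervals, and open triangles mark labels with no UMI, drawn at the level of 3 UMIs. Nkg7 is highest in Myeloid, Gzma and Gzmb in mTEC2, and Prf1 in Thymocyte. Gzma is next highest in mTEC-prol and mTEC1.

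Gzmb gave 254 UMIs in annotated stromal cells, and 245 of them were in 5 of the 61 mTEC2 cells. The cells held 143, 63, 31, 7 and 1 UMI. The level of mTEC2 was 280 CPM (246 to 317), 160-fold above Thymocyte with its 1 UMI set to 3 (51.3 to 499.8). The level rests on few cells, and without the cell of 143 it was 120 CPM. In this library 2.61% of the genes tested led in mTEC2. All 5 cells held Epcam, an epithelial surface protein, and none held a UMI of Aire, the factor that opens tissue genes in medullary epithelium, although 40 of the 61 mTEC2 cells did. None held Gzma, Prf1, Nkg7, Cd3d, Cd3e, Cd3g or Ptprc. Gzmc gave 72 UMIs in 3 of these 5 cells, of 415 in mTEC2 as a whole.

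Prf1, the pore-forming protein perforin, was spread over many labels of the thymocyte library, from DP to Mature CD8-1. The largest number of UMIs lay in DP cells, with 744 in 644 of 5202 cells, 39.3 CPM (36.6 to 42.3). It was 5.68-fold above DN (4.48 to 7.2), which gave 75 UMIs in 44 cells, and 7.01-fold above DP-P (5.67 to 8.67). In DN 1 cell held 22 of the 75. Of the later stages, Pre DP-sig stood at 46.7 CPM, Immature CD8-1 at 42.7 CPM, DP-sig at 35.7 CPM, Immature CD4-1 at 28.7 CPM and Immature CD8-2 at 27.7 CPM. The level was 17.4 CPM in intCD4 (5.64 to 40.5) and 13.5 CPM in Immature CD4-2 (6.73 to 24.1), the latter interval wholly below that of DP.

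Mature CD8-1 had the highest Prf1 level of labels of at least 20 cells, 55 UMIs in 38 of 91 cells, 58.0 CPM (43.7 to 75.5). This was 1.24-fold above Pre DP-sig, with an interval of 0.857 to 1.80; a lead needs 3-fold, so none was called. With totals that leave out mitochondrial, ribosomal protein and haemoglobin genes the ratio was 1.56 (1.07 to 2.26). It was 1.47-fold above DP (1.12 to 1.94) and 2.11-fold above Mature CD4-1 (1.34 to 3.32). Mature CD8-2 gave 0 Prf1 UMIs in 27 cells. Set to 3 UMIs its level is 7.25 CPM, and the ratio of Mature CD8-1 to that floor was 8.00. The counting interval of that ratio is 2.50 to 25.6, and the exact Poisson limit of 0 UMIs is wider, 8.91 CPM.

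The gdT label held 21 Prf1 UMIs in 14 cells, 7.71 CPM (4.78 to 11.8). Mature CD8-1 was 7.52-fold higher (4.55 to 12.4), and DN at 6.92 CPM did not differ from gdT beyond counting error (ratio 1.11, 0.687 to 1.81). AgoSel2 gave 17 UMIs, 24.4 CPM, and AgoSel1 7 UMIs, 15.8 CPM, a ratio of 1.54 with an interval of 0.639 to 3.71. NKT gave 10 UMIs in 3 of 18 cells, 56.4 CPM (27.1 to 104), a level next to that of Mature CD8-1, with 9 of them in the 2 cells that carried most of its Nkg7. Among labels of at least 20 cells, gdT was first for Nkg7 and below most T cell labels for Prf1.

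Depth differed between the labels compared. A Prf1 UMI was found in 41.8% of Mature CD8-1 cells (31.5 to 52.6) at a median of 10290 UMIs, 12.4% of DP cells at 3205.5, 11.3% of DN cells at 23190 and 10.9% of gdT cells at 19803.5. Thinned to 1000 UMIs, DP stood at 4.20% (3.67 to 4.79), DN at 0.256%, Mature CD8-1 at 2.20% (0.267 to 7.71) and gdT at 0 of 128. In the stromal library Prf1 gave 58 UMIs, 52 of them in the 411 cells labelled Thymocyte, 30.3 CPM (22.6 to 39.7), in 11.2% of cells at a median of 2648 UMIs. Myeloid held 1, TMC2 none.

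Klrd1 encodes CD94, a lectin-like receptor that pairs with NKG2 chains and binds non-classical class I molecules. It gave 113 UMIs in the thymocyte library, 52 of them in 8 of the 18 NKT cells, 293 CPM (219 to 385), 15.5-fold above Mature CD8-1 (9.04 to 26.4). The 2 cells with most Nkg7 held 27 of the 52; the other 16 held 25, 161 CPM. Most of its other UMIs lay in the 4 mature CD4 and CD8 labels, with 18 in 12 Mature CD8-1 cells (19 CPM), 15 in 12 Mature CD4-2 cells (12.0 CPM), 10 in 10 Mature CD4-1 cells (9.84 CPM) and 5 in 2 Mature CD8-2 cells (12.1 CPM). Mature CD8-1 did not differ from Mature CD4-2 beyond counting error (ratio 1.59, 0.800 to 3.15).

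Klrd1 gave 2 UMIs in 5202 DP cells, and 0 in gdT, DN, AgoSel1 and B+myeloid. For gdT, with 0 UMIs set to a floor of 1.10 CPM, the ratio of Mature CD8-1 to that floor was 17.2. Its counting interval is 5.07 to 58.5, and the exact Poisson limit of 0 UMIs is 1.36 CPM. A UMI was found in 13.2% of Mature CD8-1 cells (7.0 to 21.9) and 0.0384% of DP cells. After thinning, 1 of 91 Mature CD8-1 cells held one, too few to compare. The whole stromal library held 1 Klrd1 UMI.

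The transcription factors were near the limit of detection. Tbx21 gave 27 UMIs in the thymocyte library, with 6 in 1 NKT cell, the one with most Nkg7, 3 in AgoSel2, 3 in B+myeloid, 1 in gdT and 0 in both Mature CD8 labels. Eomes gave 13, with 4 in DP, 3 in 3 NKT cells and 3 in 1 gdT cell. In the stroma Tbx21 gave 27, of which 14 were in 3 mTEC2 cells with 11, 2 and 1; these held Aire at 15, 3 and 5 UMIs, and the first held Ptprc, the gene of CD45, at 23. Eomes gave 3.

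Cells with at least 2 members were few, and most members were also found in few cells of a label. Whether the counts differ from those of independent detection was not tested. At least 2 members were detected in 10 of 128 gdT cells, 8 of them with Nkg7 and Prf1. It was 4 of 58 AgoSel2 cells, 2 of 91 Mature CD8-1 cells and 3 of 505 Myeloid cells. In NKT it was 4 of 18, and 3 of those held at least 3 members. Thinned to 1000 UMIs, the counts were 0 in gdT and Myeloid and 2 in NKT.

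Genes most like a member were those with the highest Pearson r of log2(CPM + 1) over labels of at least 20 cells, a description over points that share 1 library. Over 21 thymocyte labels, Nkg7 was most like Rab27b (r 0.90), Tmem107 (0.86) and Tarp (0.84), each highest in gdT, at 63.2, 12.5 and 305 CPM. NKT, with under 20 cells, was not among these labels. Rab27b is a small GTPase of granule release. Prf1 was most like Rmc1, Trappc12 and Rpap2 (0.83 to 0.84), and Klrd1 like Usp44, Rab3ip and Faah (0.80 to 0.81). Over 24 stromal labels, Nkg7 was most like Rnase2 (0.98), Nfam1 (0.97) and Cxcr2 (0.97), all highest in Myeloid. Gzmb was most like Chia, Ly6i and Retnla, each with r near 1.00 and highest in mTEC2, where 2, 3 and 0 of the 5 Gzmb cells held them.

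Of 94 genes on 6 lists of granule effectors, cytokines, NK receptors, transcription factors, homing receptors and IL-17-type genes, 93 were in the tables. In the thymocyte library 59 had at least 20 UMIs in their highest label; 18 led, 17 of them in gdT, AgoSel or B+myeloid, beside 11.4% of all genes tested that led in the labels studied. Nkg7 was the only one to lead in gdT. Leads in AgoSel2 were Xcl1, a chemokine for cross-presenting dendritic cells, at 333 CPM, and Zbtb16 at 76.0 CPM. NKT, under the 20 cells needed for ranking, held Zbtb16 at 350 CPM. The other 14 led in B+myeloid, among them Tyrobp, Fcer1g, Fcgr3a, Ccl5 and Klrc3. Ccl5 stood at 8.37 CPM in B+myeloid on 20 UMIs, and at 914 CPM in NKT. None led in a Mature CD8 label, as no gene of the 10010 did.

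With labels of at least 10 cells, NKT was the highest label for 31 of the 91 list genes with at least 1 UMI. Over all 24087 genes with at least 1 UMI it was the highest for 5.41%. Neither count sets a minimum of UMIs in NKT. Some of the 31 rest on few UMIs there, such as Gzma on 1, Tnfsf10 and Ncr3 on 2, and Eomes and Nfil3 on 3. The leads in the other labels studied fell from 17 to 9 of 55, beside 10.7% of all genes tested at that setting. Gzmm then gave 82 UMIs in NKT (463 CPM), Ccl5 162 and Gzmk 15, genes named after their values were seen. How much of the NKT result rests on the 2 cells with most Nkg7 was not tested. Those 2 cells held all 32 Klrb1a UMIs of the label and 21 of 30 of Klrk1, but 4 of 62 of Zbtb16. In the stroma 19 of 56 genes led, 6 of them in Myeloid, against 1.79% of all genes: Tyrobp, Fcer1g, Hcst, Nkg7, Klrb1b and Il18rap, of which the first 3 are adaptors that signal for many receptors of myeloid cells too. Relative to all other cells of the library, the granule effectors with at least 20 UMIs in the library (9 of 13 in thymocytes, 12 in the stroma) had a median log2 ratio (of CPM + 1) of 0.30 in gdT, 0.96 in Mature CD8-1, -0.34 in Mature CD8-2, -0.37 in AgoSel1, 0.65 in AgoSel2, 0.12 in B+myeloid, 1.99 in NKT and -0.27 in Myeloid. Over all genes the medians were, in the same order, -0.09, -0.45, -0.39, -0.29, -0.25, -0.19, -0.50 and -0.48. The median of the granule list was thus slightly below that of all genes in AgoSel1 and slightly above it in Mature CD8-2. In the other labels it was higher. These are medians of few genes without an interval. The list includes members and was chosen with earlier results known, so the medians are a description only.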

How the data were processed

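The deposited counts are UMI counts, whole numbers for each gene in each barcode; per the submitters' processing notes the tools were Cell Ranger 8.0.0 and Seurat 5.3.0 and the build mRatBN7.2. The percent of mitochondrial UMIs is a percent that the authors give per cell and was not used to filter. Labels are the authors' projected label or, where none is given, the first cluster. The members and lists were chosen with earlier results of these data known. UMIs were summed per label and divided by the label's total (CPM, per 1000000), with exact Poisson intervals; intervals are exact Clopper-Pearson for shares and log-normal for ratios, all at 95%. A label with fewer than 3 UMIs counts as 3 in a ratio. Labels of at least 20 cells were ranked. Thinning to 1000 UMIs left out 51 thymocyte-library and 83 stromal cells.

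The text names the 7 members, for each with at least 100 UMIs in a library the 3 genes most alike, and the list genes that led; genes chosen after seeing values are said to be so. Marker lists only checked the labels. Of 34034 feature names 29433 matched a symbol of the RefSeq table on GRCr8, a later build than the counts, used for names and promoters; 6 members had a promoter. The lead rule called 99% of 200 raised genes on data simulated from each library's 34034 genes. Those genes were drawn from genes with many UMIs and raised well above the 3-fold of the rule. The share therefore does not apply to members with few UMIs or to leads near 3-fold. The alternatives are those of the closing section; those chosen after seeing the data were a minimum of 10 cells, leaving out the cell with most UMIs of a gene, and gdT cells of the first cluster DN alone. The tools were SciPy 1.17.1, pandas 2.3.3, matplotlib 3.10.9 and NumPy 2.4.6 under Python 3.11.15 (seed 7).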

Additional observations from a re-analysis of the deposited data

Results flagged for a closer look

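Of the stromal barcodes, 2934 had no annotation and enter no comparison above. They held Nkg7 at 56.6 CPM (490 UMIs in 33 barcodes, 164 of them in 1), where the annotated cells of that library held 43.9 CPM. They held Gzma at 1.85 CPM (16 UMIs in 9 barcodes), where the annotated cells held 0.631 CPM. Both lie above the level of 3 UMIs in these barcodes, 0.346 CPM, and above the exact Poisson limit of 0 UMIs, 0.426 CPM. What these barcodes are was not tested.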

How the results depend on the processing

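No paired analysis was possible because there was 1 sample in every group. Of 573 recomputed values 488 stayed within their limits, 84 moved further and 1 changed sides. The limits were counting intervals, or a set fold for counts of cells and genes. A lead was counted as changing sides only if its main interval lay wholly above 1. The Prf1 lead of Mature CD8-1, with a main interval that includes 1, is thus counted as moved, though thinning put it at 0.376. The total includes values that a setting could not change, as where it left the cells of a label untouched. Among the main values, such as the leads and Nkg7 in gdT and Myeloid, 53 stayed, 25 moved further and 1 changed sides. That 1 was the Nkg7 lead of gdT: with labels of at least 10 cells NKT ranked first and gdT stood at 0.461 of it; the lists then gave 9 leads, and Gzmb of mTEC2 led 9.27-fold. Thinned to 1000 UMIs, Nkg7 in gdT was 102 CPM, led 3.08-fold (0.878 to 10.8) on 13 UMIs, under the 20 a lead needs, and was found in 9.38% of cells; in Myeloid it was 718 CPM, 14.4-fold and 40.2%. Thinning also put Mature CD8-1 at 0.376 of the highest label for Prf1, Gzmb in mTEC2 at 17.9-fold, and cells with 2 members at 0 in gdT and 0 in Myeloid. Totals without mitochondrial, ribosomal and haemoglobin genes gave Nkg7 199 CPM in gdT and 1081 CPM in Myeloid. The mean of the cells' CPM gave 113 and 699 CPM, and a Myeloid lead of 16.4. Cells up to the 99th percentile of UMIs gave Myeloid 869 CPM, and cells without a CD3 UMI 527 CPM and a lead of 5.91. By first cluster alone, which has no gdT group, DN was highest for Nkg7 at 25.7 CPM, 2.56 times Mature SP; Myeloid led 68.6-fold, and Prf1 of Thymocyte 28.9-fold, as it did with labels of at least 50 cells. Without the cell holding most UMIs these leads were 522-fold and 27.2-fold; in all cells Prf1 of Thymocyte led 5.52-fold, over 1 UMI in 29 cells.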
